A study of Homo sapiens with 4 samples.

Results

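The cytosolic ribosomal protein genes were followed in RNA sequencing of HepG2 and PLC/PRF/5, which are established human liver cancer lines. Members were chosen by name, as protein-coding genes called RPL or RPS with a number and, where present, a suffix A, X or L and a digit, together with RPLP0, RPLP1, RPLP2 and RPSA. In all, 84 genes of the deposited table had such a name. Of these, 82 reached at least 1 FPKM (fragments counted on a gene, divided by its length and by the library total) in at least 2 libraries, 50 of the large and 32 of the small subunit, among 12838 genes that passed the same filter and 32479 in the table. The 4 groups, with 1 library each, were HepG2 treated with 20 uM PF-429242 for 24 h, untreated HepG2 at 24 h, PLC/PRF/5 treated with 20 uM PF-429242 for 24 h, and untreated PLC/PRF/5 at 24 h. All 4 were labelled wild type and shared 1 growth medium. PF-429242 is a reversible inhibitor of site-1 protease, the Golgi enzyme that makes the first cut in SREBP and ATF6 precursors. HepG2 derives from a hepatoblastoma and PLC/PRF/5 from a hepatoma that carries integrated hepatitis B virus DNA. Each line is a single tumour's descendants, and no group had a second culture, so a difference between groups has no replicate check.

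The cytosolic ribosome is built from a large subunit, which joins amino acids and holds the exit tunnel of the new chain, and a small subunit, which reads the message. Each subunit carries ribosomal RNA and a set of proteins that are needed in equal numbers, and their genes are scattered over the genome. Most of their messages begin with a C followed by a run of pyrimidines, the terminal oligopyrimidine tract, through which mTORC1 and LARP1 set how well they are translated. Liver cells make much protein for secretion and hold many ribosomes.

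The recovered totals were 20350701 fragments in treated HepG2, 16722204 in control HepG2, 16982560 in treated PLC/PRF/5 and 21387301 in control PLC/PRF/5. Mitochondrial genome transcripts took 27.6% of the treated and 16.6% of the control HepG2 fragments, and 28.2% of the treated and 21.3% of the control PLC/PRF/5 fragments, which bears on every treatment ratio given per library total. All 8 hepatocyte markers examined passed the filter, among them ALB at 2421 FPKM in treated and 2586 FPKM in control HepG2, and at 1148 FPKM in treated and 624 FPKM in control PLC/PRF/5. Not all moved alike, since FGB was at 94.4 FPKM in treated and 145 FPKM in control HepG2, and at 347 FPKM in treated and 648 FPKM in control PLC/PRF/5. Of the markers of other cell types, none of 5 for fibroblasts passed the filter, 1 of 4 for endothelium did (PECAM1, at most 1.36 FPKM) and 1 of 5 for blood cells did (LYZ, 179 to 504 FPKM).

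Sequence around the annotated transcription start was available from RefSeq on GRCh38.p14 for 66 of the 82 genes, and is shown because the pyrimidine tract is what these messages are known for. The annotated start fell on a C in 47 of them (71.2%), against 14.99% of all 27305 promoters in the same table. A C at the start followed by at least 4 further C or T letters was found in 43 (65.2%), against 4.04% of all promoters. Counted from any C within 5 bases of the start, on the transcribed strand, 51 (77.3%) held a run of at least 5 C or T letters, against 21.1% of all promoters. The windows below run from 15 bases before the annotated start to the 15th base from it, on the transcribed strand, with the run in capitals where one of at least 5 letters was found. The first 5 hold such a run, counted from a C within 5 bases of the annotated start, and the last 4 do not. In RPS26 a run of C and T letters lies just downstream of that limit, so its class depends on the annotated start. The last 4, like RPS6 and RPL22L1, belong to the 5 highest or 5 lowest genes in the comparison of the lines given further on.
RPS6, chr9:19380222-19380251, minus strand: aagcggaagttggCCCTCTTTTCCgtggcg
RPS24, chr10:78033848-78033877, plus strand: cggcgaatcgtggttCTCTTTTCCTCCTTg
RPL41, chr12:56116618-56116647, plus strand: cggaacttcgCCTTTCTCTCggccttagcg
RPL3, chr22:39319609-39319638, minus strand: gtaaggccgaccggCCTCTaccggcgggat
RPL22L1, chr3:170870181-170870210, minus strand: cgcggccgtagCTTCCTCTCTgctctcgcg
RPL13, chr16:89560642-89560671, plus strand: ggccctgctatcatcccagagtgcattgcg
RPS26, chr12:56041903-56041932, plus strand: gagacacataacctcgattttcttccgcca
RPL26L1, chr5:172958714-172958743, plus strand: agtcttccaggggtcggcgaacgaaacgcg
RPS27L, chr15:63157463-63157492, minus strand: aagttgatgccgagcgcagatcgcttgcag

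In the full promoter windows, 250 bases before to 50 after the start and both strands, CTTTCC stood in 30 of the 66 (45.5%, against 26.3% of all promoters) and the ETS core CCGGAAG in 23 (34.8%, against 10.7%). The YY1 core AAGATGG stood in 9 (13.6%, against 6.06%), and the SP1 box GGGCGG in 35 (53.0%, against 44.6%). The TATA box letters TATAAA were in 6 (9.09%, against 11.95%) and the E-box CACGTG in 4 (6.06%, against 7.43%). A match is a description of these letters only. The 51 genes with a run had a median log2 ratio, PF-429242 over control, of -0.12 in HepG2 and -0.03 in PLC/PRF/5, and the 15 without one had medians of -0.15 in HepG2 and -0.01 in PLC/PRF/5. Both classes lay close together in each line.

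Per kilobase, most of these genes were among the higher transcripts of the libraries. The median over the 82 genes was 82.95 FPKM in treated and 90.3 FPKM in control HepG2, and 79.9 FPKM in treated and 85.1 FPKM in control PLC/PRF/5. On average over the 4 libraries, 35 genes reached 100 FPKM and 8 stayed under 10 FPKM. RPS12, a small-subunit protein, led with 441 FPKM in treated and 515 FPKM in control HepG2, and 492 FPKM in treated and 487 FPKM in control PLC/PRF/5. RPS2, which sits at the entry of the message channel, followed with 427 and 454 FPKM in treated and control HepG2, and 339 and 354 FPKM in treated and control PLC/PRF/5. RPL13A and RPL19 came next, with means over the libraries of 376 and 363 FPKM.

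FPKM here is per kilobase of all annotated exons of a gene, and these genes have many minor exons. The median exon length was 3055.5 bases, against 707 bases for the principal transcript. Per kilobase of principal transcript, the median was 384 in treated and 415 in control HepG2, and 348 in treated and 355 in control PLC/PRF/5. On that scale RPS2 led with a mean of 954, followed by RPL19 at 867 and RPS7 at 839, and RPS12 stood at 490. The order at the top therefore depended on the length used.

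**Figure D1:**
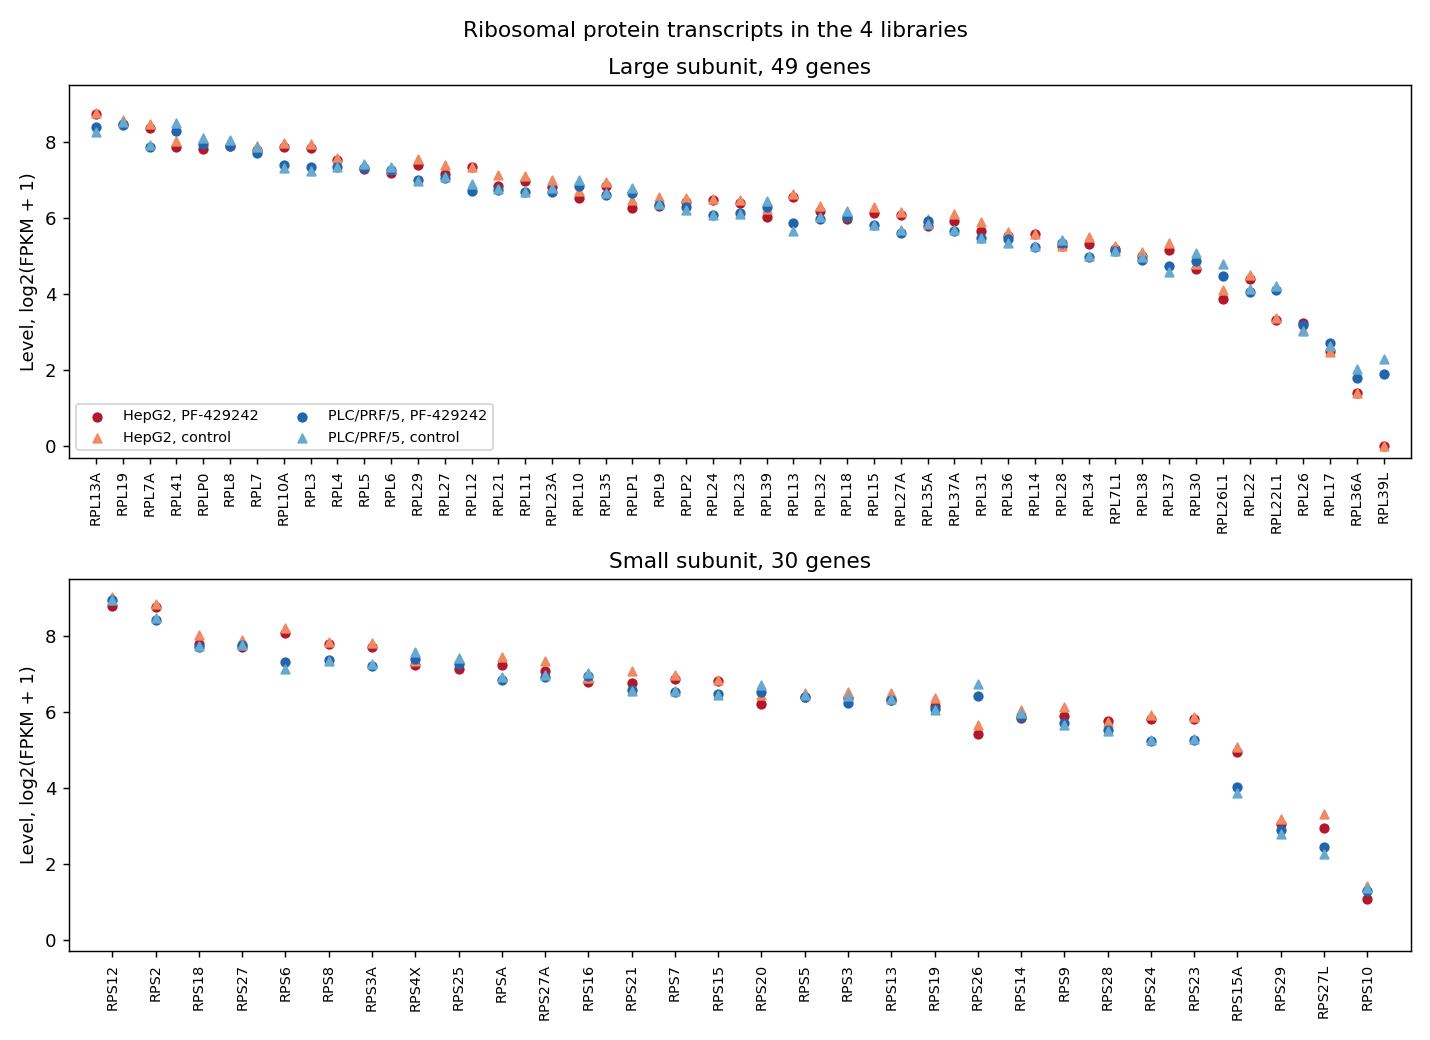
Level of 79 of the 82 genes in the 4 libraries on the log2(FPKM + 1) axis, large subunit above and small subunit below, ordered by mean FPKM. The 4 points of most genes lie close together, while RPL39L is listed at 0 in both HepG2 libraries and RPS26, RPL26L1 and RPL22L1 are higher in both PLC/PRF/5 libraries.

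The lowest genes were mostly ones whose exons lie within another annotated gene. RPS10 averaged 1.44 FPKM with 74.1% of its principal transcript covered by RPS10-NUDT3, RPL36A 2.20 FPKM with 77.6% covered by RPL36A-HNRNPH2, and RPL17 4.97 FPKM with 91.0% covered by RPL17-C18orf32. RPL26 had 61.2% covered by AC135178.2. The sources used here do not say how the counting treated fragments shared between such genes, so the levels of these 4 genes are uncertain. Among genes named further on, RPL10 had 46.7%, RPS15A 41.5% and RPS6 20.3% of the principal transcript covered by another gene, and 56 of the 82 genes had no covered base. Just inside the filter stood RPS10, at 1.10 to 1.67 FPKM in the 4 libraries, and RPL39L, which passed through the PLC/PRF/5 libraries alone. Just outside stood RPL10L, with at most 0.576 FPKM, and RPL3L, with at most 0.282 FPKM. Processed copies were a further source of doubt, since 456 pseudogenes named after 70 of the genes were in the table. They held few fragments, from 0.733% to 0.784% of the number in the ribosomal protein genes themselves in the 4 libraries.

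Together the ribosomal protein genes took a few percent of each library. Their share of all fragments was 2.77% in treated HepG2 (95% Clopper-Pearson interval 2.76 to 2.77) and 3.03% in control HepG2 (3.02 to 3.03). It was 2.44% in treated PLC/PRF/5 (2.43 to 2.45) and 2.52% in control PLC/PRF/5 (2.52 to 2.53). The intervals within each line did not overlap, and they cover counting error only. Among fragments of nuclear protein-coding genes the order within each line was the other way round, with 3.91% in treated and 3.70% in control HepG2, and 3.58% in treated and 3.31% in control PLC/PRF/5. Large-subunit genes held 1.71 times as many fragments as small-subunit genes in treated HepG2, 1.68 times in control HepG2, 1.76 times in treated PLC/PRF/5 and 1.75 times in control PLC/PRF/5. These totals sum 52 large-subunit and 32 small-subunit genes. By summed FPKM the ratio was 1.32 to 1.35. The median FPKM per gene was higher for the small subunit in each library, at 95.3 against 80.9 FPKM in treated HepG2. In bulk RNA, fewer cells and less RNA per cell cannot be told apart.

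**Figure D2:**
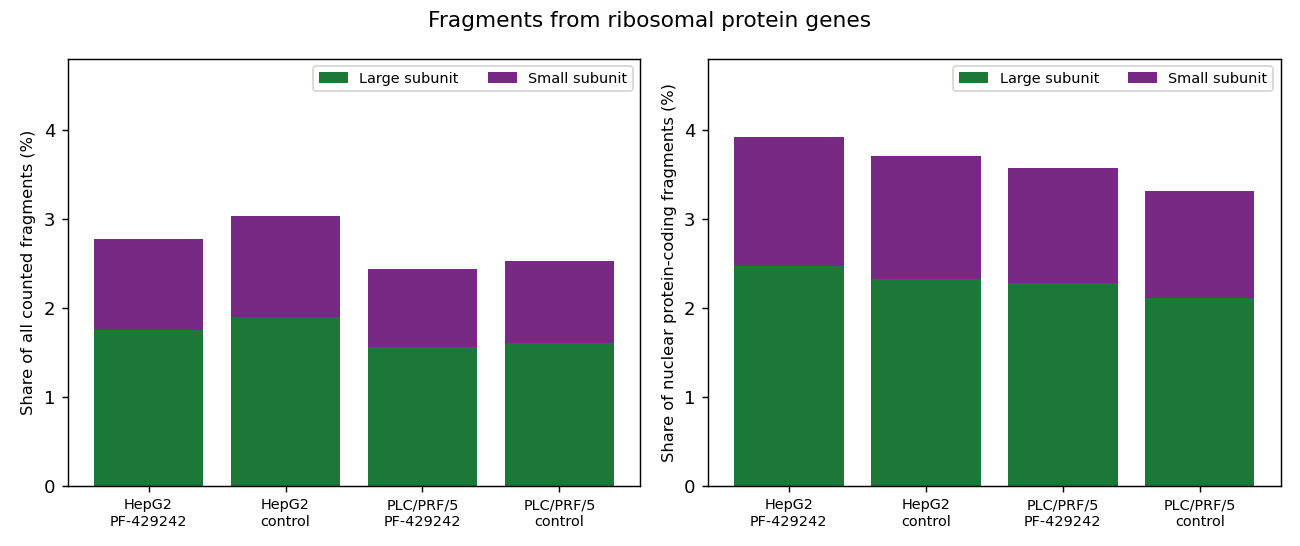
Share of fragments from ribosomal protein genes in each library, as a percentage of all counted fragments (left) and of fragments from nuclear protein-coding genes (right), with the large subunit below and the small subunit above. Within each line the treated library is lower on the left (2.77% and 3.03% in treated and control HepG2) and higher on the right (3.91% and 3.70%).

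With PF-429242, the ribosomal protein messages moved little. The median log2 ratio of (FPKM + 1), PF-429242 over control, was -0.12 in HepG2, against -0.16 over all 12838 measured genes, and -0.03 in PLC/PRF/5, against -0.12 over all. Relative to the median of all genes, the set thus stood 0.04 higher in HepG2 and 0.08 higher in PLC/PRF/5 on the log2 scale. That direction turned in HepG2 with a pseudocount of 5 (-0.024), and without the filter on low values in HepG2 (-0.084) and in PLC/PRF/5 (-0.011). In HepG2, 75 genes were below 0, 6 were above and RPL39L, without a fragment in either library, was at 0, and in PLC/PRF/5 57 were below and 25 above. A log2 ratio of 0.32 in either direction, which is 25% higher or 20% lower, was taken as the fold to count past. Lower by that fold or more in HepG2 were 2 genes, RPS27L and RPS10, against 18.6% of all measured genes. None was higher by that fold in HepG2, against 3.22% of all. In PLC/PRF/5 only RPL39L was lower by that fold or more, against 17.5% of all genes, on 48 treated and 87 control fragments (ratio of FPKM 0.695, 95% interval 0.478 to 1.00), and none was higher, against 7.79% of all. No ribosomal protein gene differed by 2-fold with treatment in either line. In HepG2, 1.21% of all genes were lower and 0.522% higher by 2-fold, and in PLC/PRF/5 0.981% were lower and 0.795% higher.

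The genes were also closely grouped. The SD of the log2 ratio across the 82 genes was 0.09 in HepG2 and 0.12 in PLC/PRF/5, against 0.28 in HepG2 and 0.31 in PLC/PRF/5 for the 1446 other nuclear coding genes with a mean of 20 FPKM or more. Those other genes had median log2 ratios of -0.20 in HepG2 and -0.16 in PLC/PRF/5. The mitochondrial ribosomal proteins, which share the name but serve the organelle, gave medians of -0.17 and -0.14 over 75 genes in HepG2 and PLC/PRF/5, with SDs of 0.13 and 0.16. Close grouping was not particular to the ribosomal protein genes. In HepG2 and PLC/PRF/5, SDs were 0.10 and 0.11 for nucleolar biogenesis genes and 0.12 and 0.13 for initiation factors. Other messages with a pyrimidine tract had SDs of 0.07 and 0.17. Assembly chaperones (0.13 and 0.44) and genes for mTOR control of translation (0.40 and 0.24) were wider. The 0.44 of the chaperones in PLC/PRF/5 includes RRP7A, which stood far below the others there, at -1.89.

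**Figure D3:**
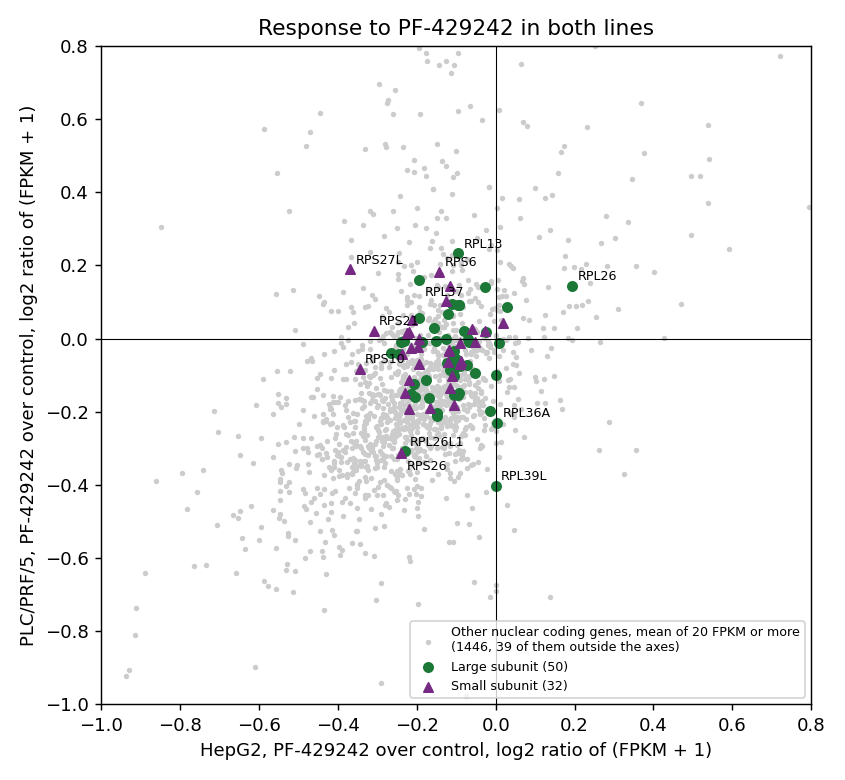
Log2 ratio of (FPKM + 1), PF-429242 over control, in HepG2 (horizontal) and PLC/PRF/5 (vertical) for the large-subunit (green circles) and small-subunit (purple triangles) genes and for 1446 other nuclear coding genes with a mean of 20 FPKM or more (grey, 39 of them outside the axes). The ribosomal protein genes form a tight group near 0 in both lines, with RPS27L lowest in HepG2 at -0.37 and RPL13 highest in PLC/PRF/5 at 0.23.

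The sign of this small shift rested on how the libraries were scaled. Scaled by the median of ratios over genes, 63 ribosomal protein genes were above 0 in HepG2 and 62 in PLC/PRF/5. Per total of nuclear genes alone, 61 and 63 were above 0 in HepG2 and PLC/PRF/5. On the TPM scale, in which the short mitochondrial transcripts weigh most, none was above 0 in either line. That scale moved the median of all measured genes to -0.46 in HepG2 and -0.41 in PLC/PRF/5. Relative to the median of all genes, the set stayed 0.01 to 0.09 above it in HepG2 and 0.04 to 0.11 above it in PLC/PRF/5 under these 3 scalings and the deposited one.

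Both lines were also fitted together, with the line as a block (limma, 1 residual degree of freedom, Benjamini-Hochberg adjustment over 12838 genes). The spread of a gene was its difference in response between the lines, moderated by limma with a trend over all genes. The standard error (SE) and p therefore do not measure that gene's own difference alone. RPL10, for example, had log2 ratios of -0.17 in HepG2 and -0.16 in PLC/PRF/5, but an SE of 0.07. No ribosomal protein gene was called at an adjusted p of 0.05, and none of all genes was either (0%). Without adjustment, 3 ribosomal protein genes had p under 0.05, which were RPS26, RPL26L1 and RPS20, against 19.4% of all genes. RPS26, which lines the channel where the message leaves the small subunit, had the smallest adjusted p in this fit, at 0.199, with a log2 change of -0.28 ± 0.07 (SE). It was at 41.8 FPKM in treated and 49.5 FPKM in control HepG2, and at 84.4 FPKM in treated and 105 FPKM in control PLC/PRF/5, lower with PF-429242 in both lines. RPL26L1 was at 13.6 FPKM in treated and 16.1 FPKM in control HepG2, and at 21.1 FPKM in treated and 26.4 FPKM in control PLC/PRF/5, a log2 change of -0.27 ± 0.07 with an adjusted p of 0.204 by limma.

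The median half-width of a gene's 95% counting interval was 0.05 in HepG2 and 0.06 in PLC/PRF/5 on the log2 scale, beside median log2 ratios of -0.12 in HepG2 and -0.03 in PLC/PRF/5. In PLC/PRF/5 the half-width was larger than the size of the median ratio, in which ratios above and below 0 offset each other. The SD of the ratio across genes there was 0.12. In HepG2 the interval lay below 1 for 68 genes and above 1 for 1, and in PLC/PRF/5 below 1 for 33 and above 1 for 11. For 29 genes it lay below 1 in both lines, for none above 1 in both, and for 10 it lay on opposite sides. These intervals compare libraries, not conditions, and are given for the ribosomal protein genes alone. Of all 12838 measured genes, 10318 had a log2 ratio below 0 in HepG2 and 8915 in PLC/PRF/5 on the same scale. The counts therefore do not show a decrease particular to the ribosomal protein genes.

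The genes with the lowest ratios in HepG2 were RPS27L, RPS10, RPS21, RPL21 and RPL9. RPS27L, a paralogue of RPS27 that p53 activates, was at 6.67 FPKM in treated and 8.91 FPKM in control HepG2, a log2 ratio of -0.37, but at 4.45 FPKM in treated and 3.78 FPKM in control PLC/PRF/5, a log2 ratio of 0.19. RPS21, of the small subunit, was at 108 FPKM in treated and 134 FPKM in control HepG2, against 93.7 FPKM in treated and 92.3 FPKM in control PLC/PRF/5. RPL21 and RPL9, of the large subunit, had log2 ratios of -0.27 and -0.25 in HepG2 and of -0.04 each in PLC/PRF/5. The overlapped RPS10 had a log2 ratio of -0.35 in HepG2 on 53 treated and 66 control fragments. The highest ratios in HepG2 were those of RPL26 (0.19, one of the overlapped genes), RPL17 (0.03), RPS28 (0.02), RPL14 (0.01) and RPL36A (0.00).

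In PLC/PRF/5 the lowest log2 ratios were those of RPL39L (-0.40), RPS26 and RPL26L1 (both -0.31), RPL36A (-0.23) and RPL41 (-0.21). The highest were those of RPL13 (0.23), RPS27L (0.19), RPS6 (0.18), RPL37 (0.16) and RPS15A (0.14). RPS6, the small-subunit protein that S6 kinases phosphorylate downstream of mTORC1, was at 266 FPKM in treated and 294 FPKM in control HepG2, and at 156 FPKM in treated and 138 FPKM in control PLC/PRF/5. Its ratio of FPKM was 0.905 in HepG2 (95% interval 0.884 to 0.926) and 1.14 in PLC/PRF/5 (1.10 to 1.17). RPL13, of the large subunit, was at 92.6 FPKM in treated and 99.0 FPKM in control HepG2, and at 57.8 FPKM in treated and 49.1 FPKM in control PLC/PRF/5. RPL37 was at 34.8 and 39.9 FPKM in treated and control HepG2, and at 25.6 and 22.8 FPKM in treated and control PLC/PRF/5. All 3 were lower in the treated library of HepG2 and higher in that of PLC/PRF/5 on the deposited scale. In all, the log2 ratio was lower in HepG2 than in PLC/PRF/5 for 64 of the 82 genes, and for 7546 of all 12838. By the median of ratios it was lower for 34, and per nuclear total for 41. The genes whose ratio was higher in HepG2 by the most were RPL39L, RPL36A, RPL12, RPL28 and RPL26L1, where RPL39L counts through PLC/PRF/5 alone. Of these, RPL12, which sits at the base of the stalk, was at 161 FPKM in treated and 162 FPKM in control HepG2, and at 103 FPKM in treated and 118 FPKM in control PLC/PRF/5. RPL28 had log2 ratios of 0.00 in HepG2 and -0.10 in PLC/PRF/5.

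Proteins with known separate roles lay within the same narrow range. The stalk that recruits elongation factors is built from RPLP0, RPLP1 and RPLP2. RPLP0 was at 223 FPKM in treated and 257 FPKM in control HepG2, and at 245 FPKM in treated and 274 FPKM in control PLC/PRF/5. RPLP1 was at 76.2 and 88.1 FPKM in treated and control HepG2, and at 100 and 110 FPKM in treated and control PLC/PRF/5. RPLP2 was at 85.0 and 90.9 FPKM in treated and control HepG2, and at 77.8 and 72.9 FPKM in treated and control PLC/PRF/5. RPLP0 and RPLP1 were thus lower in both treated libraries, and RPLP2 in that of HepG2 only. RPL5 and RPL11, which bind the 5S ribosomal RNA and, when free, MDM2, had log2 ratios of -0.11 and -0.13 in HepG2, and of -0.10 and 0.00 in PLC/PRF/5. RPSA, also known as the precursor of a laminin receptor, was at 150 FPKM in treated and 172 FPKM in control HepG2, and at 113 FPKM in treated and 119 FPKM in control PLC/PRF/5.

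The response was also read by subunit. In HepG2 the median log2 ratio was -0.11 for the large and -0.16 for the small subunit, a difference of 0.05, and in PLC/PRF/5 it was -0.04 for the large and -0.03 for the small subunit. The difference in PLC/PRF/5, -0.01, had the opposite sign. Genes of 1 subunit are not replicates, so no test was made.

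The lines differed more than the treatments did. Between the controls, the median log2 ratio of (FPKM + 1), HepG2 over PLC/PRF/5, was 0.27 for the ribosomal protein genes, against -0.05 for all measured genes. Higher in HepG2 were 59 genes and lower 23. Past a log2 ratio of 0.32, 35 (42.7%) were higher, against 29.4% of all measured genes, and 6 (7.32%) were lower, against 34.8% of all. By 2-fold or more, 3 were higher (RPS15A, RPS6 and RPS27L), against 9.53% of all genes, and 2 were lower (RPL39L and RPS26), against 12.1% of all. RPL39L, with no fragment in HepG2, passed the filter through PLC/PRF/5 alone, so its direction followed from the filter. It is among the 2, among the 6 and among those lower between the treated libraries. Between the treated libraries the median was 0.13 for the set and -0.09 for all genes, with 24 higher (29.3%) and 7 lower (8.54%) past 0.32, against 23.5% and 34.8% of all genes. The ratio was smaller between the treated libraries for the genes at the top, at 0.94 and 1.20 between treated and control pairs for RPS15A, 0.76 and 1.09 for RPS6, 0.67 and 1.00 for RPL13, and 0.49 and 1.05 for RPS27L. The same genes passed in both pairs for 23 higher and 6 lower, and 75 of the 82 had the same sign in both. Agreement between the pairs was not counted over all measured genes, so these counts do not show a trait particular to the set. These ratios share the control libraries with the treatment ratios above. The large subunit had a median of 0.25 and the small subunit 0.30 between the controls.

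With both pairs fitted together and the treatment as a block (limma, 1 residual degree of freedom), 43 ribosomal protein genes (52.4%) were called at an adjusted p of 0.05, against 54.9% of all measured genes. The split by direction was 33 higher in HepG2 (40.2%), against 23.1% of all genes, and 10 lower (12.2%), against 31.8% of all. Of the 33, 21 were of the large and 12 of the small subunit. Of the 10, 8 were of the large and 2 of the small subunit. The 10 include RPL39L, whose direction followed from the filter. Without the block, 16 were called. Of them 11 were higher in HepG2 (13.4%), against 18.3% of all genes, and 5 lower (6.10%), against 24.1% of all. The larger share of higher calls than among all genes was therefore not seen without the block.

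Among the genes higher in HepG2, RPS15A of the small subunit was at 29.995 FPKM in treated and 32.6 FPKM in control HepG2, and at 15.2 FPKM in treated and 13.7 FPKM in control PLC/PRF/5. Its log2 change over both pairs was 1.07 ± 0.09 (SE), with an adjusted p of 0.00418 by limma. RPS6, with the values above, changed by 0.93 ± 0.11 (adjusted p = 0.00669), and RPL13 by 0.83 ± 0.11 (adjusted p = 0.00714). RPL3, which reaches toward the peptidyl transferase centre, was at 229 FPKM in treated and 245 FPKM in control HepG2, and at 161 FPKM in treated and 151 FPKM in control PLC/PRF/5, a change of 0.60 ± 0.09 with an adjusted p of 0.0102 by limma. RPS24, one of the genes mutated in Diamond-Blackfan anaemia, was at 55.3 and 59.0 FPKM in treated and control HepG2, and at 36.8 and 37.1 FPKM in treated and control PLC/PRF/5. For each of these 5 genes both HepG2 libraries lay above both PLC/PRF/5 libraries. RPS27L and RPL37 changed by 0.77 ± 0.16 and 0.60 ± 0.11, with adjusted p of 0.0222 and 0.0155.

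Among the genes lower in HepG2, RPS26 had the smallest adjusted p in this fit, with a log2 change of -1.03 ± 0.07 and an adjusted p of 0.00292. RPL41, which encodes a very short basic peptide of the large subunit, was at 233 FPKM in treated and 259 FPKM in control HepG2, and at 310 FPKM in treated and 359 FPKM in control PLC/PRF/5. Its change was -0.44 ± 0.09, with an adjusted p of 0.0188. RPL10 is a large-subunit protein whose late addition readies the subunits for joining. RPLP1 and RPL10 changed by -0.35 ± 0.07 (adjusted p = 0.0213) and -0.30 ± 0.07 (adjusted p = 0.0283). For all 4 genes both HepG2 libraries lay below both PLC/PRF/5 libraries.

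The paralogues were compared between the lines beside their parent genes. Of the 7 genes with a paralogue name, 5 were measured, and 3 of them were lower in HepG2. For RPL39L, which is among the 3, that direction followed from the filter. RPL39L, a copy of the exit-tunnel protein RPL39 that is known from male germ cells and some tumours, had 0 fragments in treated and in control HepG2, and 48 fragments (2.74 FPKM) in treated and 87 fragments (3.94 FPKM) in control PLC/PRF/5. With 3 fragments as the floor of a library, the floor was 0.143 FPKM in treated and 0.174 FPKM in control HepG2. The treated floor lay 19.2-fold below the level in treated PLC/PRF/5, and the control floor 22.7-fold below that in control PLC/PRF/5. These folds leave out counting error in the PLC/PRF/5 fragments, so they are not lower bounds. For RPL39L, the counting interval of the ratio between the controls, HepG2 over PLC/PRF/5, reached up to 0.0554. Its parent RPL39 was at 63.8 FPKM in treated and 74.2 FPKM in control HepG2, and at 77.2 FPKM in treated and 85.8 FPKM in control PLC/PRF/5. The coding sequences of both, from GENCODE 29 without the stop codon, are shown with the 8 of 153 bases that differ in capitals, since so close a pair can share reads.
RPL39L: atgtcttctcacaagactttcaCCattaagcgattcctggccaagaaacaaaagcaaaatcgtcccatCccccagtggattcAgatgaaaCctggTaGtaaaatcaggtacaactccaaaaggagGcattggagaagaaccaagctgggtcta
RPL39: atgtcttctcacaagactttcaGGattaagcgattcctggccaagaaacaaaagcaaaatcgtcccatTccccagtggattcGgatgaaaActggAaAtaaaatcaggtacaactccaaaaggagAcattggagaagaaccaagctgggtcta

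The identity of the pair was 94.8%, the highest of the 7 pairs. In HepG2, RPL39 was abundant while RPL39L had no fragment.

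RPL22L1, a paralogue of RPL22, was at 8.94 FPKM in treated and 9.30 FPKM in control HepG2, and at 16.3 FPKM in treated and 17.4 FPKM in control PLC/PRF/5. RPL22 itself was at 19.9 FPKM in treated and 21.5 FPKM in control HepG2, and at 15.7 FPKM in treated and 16.4 FPKM in control PLC/PRF/5. The pair thus went opposite ways between the lines, with log2 changes of -0.82 ± 0.07 for RPL22L1 (adjusted p = 0.00424) and 0.35 ± 0.07 for RPL22 (adjusted p = 0.0204) by limma. RPL26L1 was lower in HepG2, by -0.64 ± 0.07 with an adjusted p of 0.00572, while its parent RPL26, whose exons are mostly overlapped, was at 8.53 and 7.33 FPKM in treated and control HepG2, and at 8.06 and 7.20 FPKM in treated and control PLC/PRF/5. RPL7L1 was at 35.3 FPKM in treated and 37.1 FPKM in control HepG2, and at 33.9 FPKM in each PLC/PRF/5 library, and was not called. RPL7 was at 221 and 238 FPKM in treated and control HepG2, and at 209 and 232 FPKM in treated and control PLC/PRF/5.

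RPS27L went the other way from the lower paralogues, being higher in HepG2, whereas RPS27 was at 208 FPKM in treated and 238 FPKM in control HepG2, and at 216 FPKM in each PLC/PRF/5 library. Their coding sequences differ at 56 of 252 bases (77.8% identity), and the differing bases are in capitals.
RPS27L: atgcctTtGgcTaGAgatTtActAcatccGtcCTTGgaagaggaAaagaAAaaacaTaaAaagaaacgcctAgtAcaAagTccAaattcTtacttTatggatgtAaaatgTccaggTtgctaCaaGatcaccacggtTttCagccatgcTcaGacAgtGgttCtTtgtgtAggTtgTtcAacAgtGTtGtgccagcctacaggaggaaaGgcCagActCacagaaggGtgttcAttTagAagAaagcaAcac
RPS27: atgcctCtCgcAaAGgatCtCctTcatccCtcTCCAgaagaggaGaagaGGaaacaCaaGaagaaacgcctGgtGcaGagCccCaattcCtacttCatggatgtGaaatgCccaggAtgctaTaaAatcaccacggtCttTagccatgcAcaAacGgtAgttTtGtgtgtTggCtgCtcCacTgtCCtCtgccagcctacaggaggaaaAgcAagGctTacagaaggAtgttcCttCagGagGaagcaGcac

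The line difference of a ribosomal protein gene followed that of its neighbourhood. For each gene, the median log2 ratio between the controls was taken over the other measured coding genes within 5 Mb, 9 to 179 of them. Across the 82 genes this median and the gene's own ratio had a Pearson correlation of 0.63 and a Spearman correlation of 0.70, and without RPL39L of 0.75 and 0.71 over 81 genes. Genes are not independent replicates, and both values come from the same libraries. In the treated libraries the correlations were 0.64 and 0.70, and with a window of 2 Mb between the controls 0.52 and 0.66. Of the 33 genes whose neighbours had a median above 0, 32 were themselves above 0, with a median of 0.43. Of the 49 whose neighbours were at or below 0, 27 were above 0, with a median of 0.04. The ribosomal protein gene was above its neighbours' median in 73 of the 82 cases, by 0.33 in the median.

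**Figure D4:**
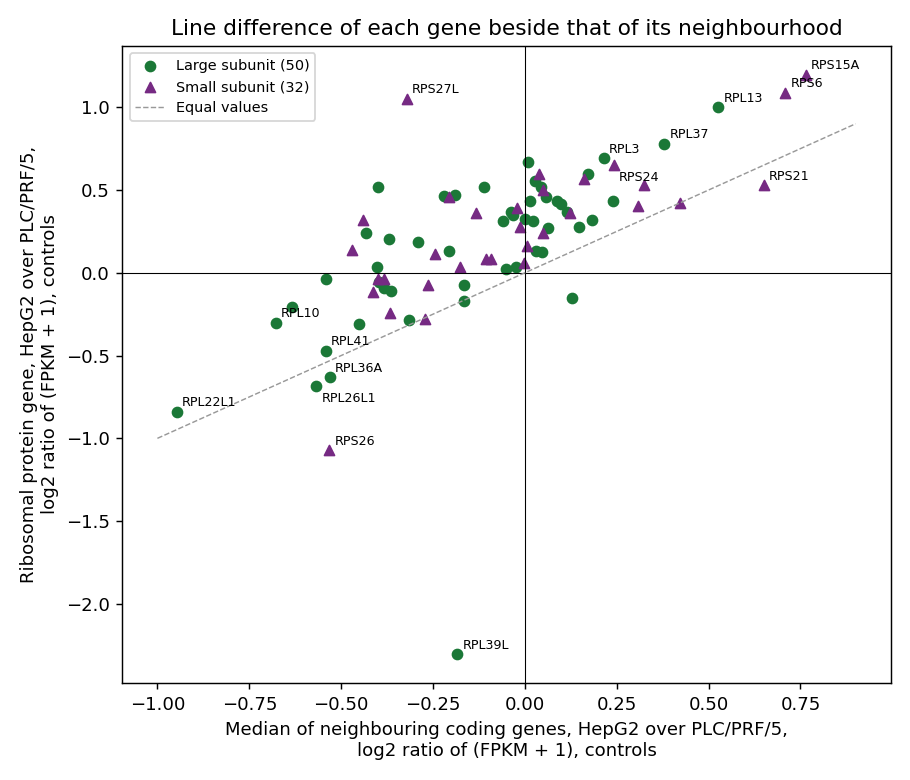
Log2 ratio of (FPKM + 1), HepG2 over PLC/PRF/5, in the control libraries for each ribosomal protein gene (vertical) and the median for measured coding genes within 5 Mb of it (horizontal), with large-subunit genes as green circles and small-subunit genes as purple triangles. Points run from lower left to upper right, mostly above the dashed line of equal values, and RPL39L and RPS27L stand away from the others.

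By chromosome the picture was mixed. The median of the ribosomal protein genes and that of the other measured coding genes lay on the same side of 0 on 12 of the 21 chromosomes with members, and on opposite sides on 9. The ribosomal protein genes had the higher median on 20 of the 21. On chromosome 19, which holds 12 members, they had a median of 0.26, against -0.17 for the others, and on chromosome 1 a median of 0.37, against -0.18. On chromosome 16, RPS15A, RPL13 and RPS2 were all higher in HepG2, with a median log2 ratio of 1.00, and the 488 other measured coding genes there had a median of 0.42. RPS15A lay among neighbours with a median of 0.76, RPL13 among neighbours at 0.53, and RPS6, on chromosome 9, among neighbours at 0.71. On chromosome X, RPL10, RPL36A, RPL39 and RPS4X were all lower, with a median of -0.27, against -0.67 for the 376 others. On chromosome 12, RPS26, RPL41, RPLP0 and RPL6 were all lower, with a median of -0.28, against -0.38 for 583 others. RPS26 and RPL41 lie close together on that chromosome and share neighbours, whose medians were -0.53 and -0.54. RPL22L1 stood among neighbours at -0.95. The copy number of these regions in the cultures was not analysed here, and its part in the ratios was not tested. RPS27L and RPL39L stood far from their surroundings, since RPS27L was at 1.05 among neighbours at -0.32, and RPL39L at -2.30 among neighbours at -0.18. They were not the only exceptions, since 27 of the 49 genes with neighbours at or below 0 were themselves above 0. Among these were RPL13A, at 0.52 among neighbours at -0.40, and RPS19, at 0.32 among neighbours at -0.44.

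FAU and RPL36AL encode ribosomal proteins too, but fall outside the naming rule, and both were lower in the treated library of each line. FAU, whose product is cut to release a small-subunit protein, was at 36.9 FPKM in treated and 43.0 FPKM in control HepG2, and at 48.8 FPKM in treated and 58.1 FPKM in control PLC/PRF/5. RPL36AL was at 68.8 and 75.9 FPKM in treated and control HepG2, and at 93.1 and 105 FPKM in treated and control PLC/PRF/5. FAU and RPL36AL were lower in HepG2 than in PLC/PRF/5 in both pairs, with adjusted p of 0.0122 and 0.0109 by limma.

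Other parts of the translation machinery were read beside the set. Of 18 other messages known to carry a pyrimidine tract, 17 were measured, with median log2 ratios of -0.05 with PF-429242 in HepG2 and in PLC/PRF/5, and of 0.31 for HepG2 over PLC/PRF/5. In the line fit 8 of the 17 were called higher and 1 lower in HepG2, against 23.1% and 31.8% of all genes. The 1 called lower passed the filter through the PLC/PRF/5 libraries alone, so its direction followed from the filter. Among them TPT1 was at 91.3 and 90.7 FPKM in treated and control HepG2, and at 48.7 and 39.2 FPKM in treated and control PLC/PRF/5. EEF2, the translocation factor, was at 714 and 708 FPKM in treated and control HepG2, and at 463 and 400 FPKM in treated and control PLC/PRF/5. The 29 initiation factors had medians of -0.10 with treatment in both lines and of -0.05 for HepG2 over PLC/PRF/5. The 11 RNA polymerase I genes had medians of -0.13 in HepG2 and -0.11 in PLC/PRF/5, the 21 nucleolar biogenesis genes of -0.10 and -0.09, and the 19 assembly chaperones of -0.07 and -0.10. No gene of these lists was called with treatment in the fit over both lines, in which none of all 12838 genes was called.

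A few regulators of this machinery had larger ratios than the ribosomal protein genes themselves. Of 15 genes for mTOR control of translation, 3 were higher by 0.32 on the log2 scale or more with PF-429242 in HepG2 and 1 in PLC/PRF/5, against 3.22% and 7.79% of all genes in HepG2 and PLC/PRF/5. The median over the 15 was -0.10 in HepG2, with 11 below 0, and -0.07 in PLC/PRF/5, with 9 below 0. DDIT4, an inhibitor of mTORC1 induced by stress, was at 12.99 FPKM in treated and 5.36 FPKM in control HepG2, and at 19.0 FPKM in treated and 15.2 FPKM in control PLC/PRF/5. SESN2, another such inhibitor, was at 8.80 and 5.96 FPKM in treated and control HepG2, and at 14.6 and 9.48 FPKM in treated and control PLC/PRF/5. EIF4EBP1, which holds back the cap-binding factor, was at 44.6 and 29.2 FPKM in treated and control HepG2, and at 52.2 and 43.9 FPKM in treated and control PLC/PRF/5. All 3 were higher in both treated libraries. Among the assembly factors, RRP7A was at 3.99 and 4.42 FPKM in treated and control HepG2, but at 0.671 FPKM in treated and 5.21 FPKM in control PLC/PRF/5.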

How the data were processed

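The deposited values are FPKM per Ensembl gene, 1 table for the 4 libraries. TopHat2 and the build GRCh38 are named in the submitters' processing notes. The counting program, the annotation release, whether strand was used and how RNA was selected were not stated in them, in the labels or in the table. Groups follow the labels, with 1 library each and none left out. The members, lists and tests were chosen with earlier results of these data known.

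Symbols, positions and exon lengths come from GENCODE 29. With these lengths, 24452 genes (75.3%) were whole numbers of fragments within 0.001. For 8026 more a length was searched that made all 4 libraries whole, and 1 gene stayed unsolved. Of the 84 named members, 44 were whole directly and 40 after the search. Ratios carry 95% Clopper-Pearson intervals of the recovered fragments, which cover counting error only, and 3 fragments were taken as the floor.

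A gene counted as measured if 2 or more libraries had 1 FPKM or more. Log2 ratios used (FPKM + 1), which understates the change of low genes. No p-value was computed for a pair of single libraries. Models over all 4 libraries used limma 3.58.1 in R 4.3.3 (trend, Benjamini-Hochberg, threshold 0.05), with 1 residual degree of freedom. Only the treatment fit was run on simulated data, with equal changes set in both lines, and the line fit was not. The p-values of these models treat the other line, or the other treatment, as the replicate, with the spread moderated over all genes. Limma-voom on the recovered fragments, run as an alternative, called 49 members in the line fit and none in the treatment fit.

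Named one by one were the 5 highest and lowest genes by level and by ratio, those differing most between the lines, paralogues with their parents, the stalk, RPL5, RPL11, RPS6, RPSA, FAU and RPL36AL, and up to 4 genes of each other list. A few genes that this rule takes in are not reported here, though they stay in all counts and fits. RPS24, RPL3, RPL10, RPLP1 and RPS20 in the line or treatment fits, and genes named by chromosome, were picked after their values were seen. Alternatives were another pseudocount (0.1 and 5), no filter, at least 5 FPKM, TPM, median-of-ratios and nuclear-total scalings, genes without paralogue names, limma without trend or block, and limma-voom. Genes without overlap, treated in place of control libraries, the 2 Mb window and the omission of RPL39L were added after seeing the data. Python 3.11.15 with pandas 2.3.3 and scipy 1.17.1 was used.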

Additional observations from a re-analysis of the deposited data

Results flagged for a closer look

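In 9 ribosomal protein genes given here the response to PF-429242 had opposite signs in the lines, lower than control in HepG2 and higher than control in PLC/PRF/5, with both counting intervals excluding a ratio of 1. This count was not made over all measured genes, so it does not show a trait particular to the ribosomal protein genes. The difference between the lines, which was not tested since each group had 1 library, was a log2 ratio in HepG2 minus that in PLC/PRF/5 of -0.56 for RPS27L, -0.354 for RPL37, -0.328 for RPL13, -0.326 for RPS6 and -0.26 for RPS15A. It was -0.23 for RPS29, -0.188 for RPL10A, and -0.187 for both RPL3 and RPLP2. On the deposited scale all 9 were opposite. By the median of ratios 1 was, per nuclear total 1, and on the TPM scale none. The differences themselves stayed below 0 under these scalings, from -0.62 to -0.10.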

How the results depend on the processing

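No paired analysis was possible because the labels give no replicate numbers that could pair single cultures. The fits over 4 libraries had the line or the treatment as a block instead. The direction of the treatment response depended on scaling. The median log2 ratio with PF-429242 in HepG2 was -0.45 on the TPM scale, 0.092 by the median of ratios and 0.081 per nuclear total, against -0.12 as deposited. In PLC/PRF/5 it was -0.37 on the TPM scale, 0.089 by the median of ratios and 0.096 per nuclear total, against -0.03. HepG2 over PLC/PRF/5 gave 0.49 on the TPM scale, 0.19 per nuclear total and 0.13 between treated libraries, against 0.27. Relative to all genes, HepG2 stood at -0.024 with a pseudocount of 5, and with no filter HepG2 stood at -0.084, PLC/PRF/5 at -0.011 and the line ratio at 0.25. Without paralogue names the large minus small difference between lines was 0.019, against -0.04.

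Genes lower past a log2 ratio of 0.32 in HepG2 (2) numbered 76 on the TPM scale (92.7%, against 69.5% of all genes), 1 at 5 FPKM or without paralogue names, and 0 with a pseudocount of 5 or either other scaling. In PLC/PRF/5 (1) they numbered 57 on the TPM scale (69.5%, against 61.0%) and 0 in each of those other settings. Genes higher by that fold (0) numbered 1 in each line by the median of ratios and per nuclear total. Genes lower between lines (6) numbered 11 per nuclear total and 3 without paralogue names. The treatment fit, with no call, made 61 calls on the TPM scale, all lower (74.4%, against 30.1% of all genes). On the TPM scale 16340 genes passed the filter, more than as deposited, and the shares of all genes there are of these. The set's median there was 0.005 above that of all genes in HepG2 and 0.04 above it in PLC/PRF/5. The TPM counts therefore do not show a decrease particular to the set. The line fit, with 43 calls, made 16 without the block and 31 to 53 under the other alternatives run. With 1 library a group, depth gives counting error only, and genes under 10 FPKM have the widest intervals.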
